A study of Mus musculus with 6 samples.

Results

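Mouse livers treated with carbon tetrachloride (CCl4) plus an adeno-associated virus that carries a hairpin against Phpt1 (AAV-shPhpt1, 2 libraries) were compared with normal livers (2 libraries), to describe which marks of injury both hairpin livers held. The genes described are those with a mean of at least 1 FPKM (fragments per kilobase of transcript, scaled to library size) in 1 of these groups, which gave 12940 genes of the 55222 entries in the deposited table. The lowest of the higher group means among them was 1.0004 FPKM, and the highest just outside was 0.9998 FPKM. Because of that rule, 1602 genes entered through the hairpin mean alone and 329 through the normal mean alone. The rule fixed the direction of their mean difference, upwards for the former and downwards for the latter. Of these genes 77 and 42 were called. All tests came from 1 fit over the 13517 genes that reached 1 FPKM in any of the 3 groups of the series, the third being CCl4 with a control virus (AAV-Ctrl, 2 libraries).

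All mice had the C57BL/6 background, with C57BL/6J named for the CCl4 model. Per the labels, CCl4 diluted in olive oil was injected into the abdomen at 12.5 ml/kg, 2 times per week, livers were collected 48 h after the last dose, and the virus went into a vein after 1 week of CCl4. The labels of the normal livers name no toxin and no virus, so what CCl4 did and what the virus did cannot be told apart in a comparison with them. The labels state 5 mice per group and do not say which animals gave the libraries or whether any were pooled, so p-values measure the spread between these samples. The hairpin's promoter, its sequence and the cells it reaches were not stated in the labels, and 1 hairpin virus was used.

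CCl4 is turned into a reactive radical by cytochrome P450 enzymes, above all the enzyme encoded by Cyp2e1, in hepatocytes around the central vein, and it kills them. The surviving hepatocytes switch on stress programmes, among them antioxidant genes of the factor NRF2, p53 targets that stop the cell cycle and the integrated stress response. Macrophages enter and clear debris, and stellate cells turn into myofibroblasts that lay down collagen. PHPT1, the protein encoded by the gene the hairpin targets, removes phosphate from histidine.

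Phpt1 (ENSMUSG00000036504, chromosome 2, 25573430 to 25575224) was nearly unread in these libraries. The deposited values correspond to 4 and 5 reads in the hairpin libraries and 4 and 4 in normal livers, a ratio of 1.07 relative to library totals. Its exact 95% interval, which covers counting error only, ran from 0.366 to 3.18. A lowering of the target was not detectable at this depth.

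The libraries implied 21488841 to 24188029 reads each, and hepatocyte genes such as Alb and Hnf4a were high in each of them. The hairpin libraries differed from each other more than the libraries of the other groups did. Along the leading principal component (64.1% of the variance) library 1 lay at 101.0% of the distance from the mean of the normal livers to the mean of AAV-Ctrl, and library 2 at 57.4%. Between the hairpin libraries 9.48% of the tested genes were over 2-fold apart, against 3.60% in normal livers. Skeletal muscle transcripts were present in hairpin library 2, where the 10 tested genes of that list summed to 176 FPKM, against 1.55 to 5.16 in the other 5 libraries. Immunoglobulin and lymphocyte transcripts were high in hairpin library 1, where the 9 B and plasma cell genes summed to 278 FPKM, against 20.96 to 51.7 elsewhere. Results are therefore given for each hairpin library, and for some lists counts also without either of them.

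Genes of stress responses and of the cytoskeleton rose and pericentral hepatocyte genes fell in the hairpin livers, with list medians away from normal in both libraries, while matrix, macrophage and proliferation genes were high mainly in library 1. In all, 441 genes rose (3.26% of the 13517 tested) and 145 fell (1.07%) at an adjusted p under 0.05 in limma, with 4282 at an unadjusted p under 0.05. These were 3.41% and 1.12% of the 12940 described genes. Both hairpin libraries lay beyond both normal libraries for each of the 586 called genes, as they did for 7050 of the tested genes upwards (52.2%) and 1684 downwards (12.5%). The risen genes had a median log2 difference from the normal mean of 1.39 in library 1 and 1.23 in library 2, and the fallen genes of -1.92 and -1.69. The test weighs a difference against the spread between libraries of a group, so genes on which the hairpin libraries disagree rarely pass. The closeness of these medians therefore follows in part from the selection. In a count without a test, on the same libraries, 350 genes (2.59%) were at least 2-fold above both normal libraries in both hairpin libraries. A further 150 (1.11%) were at least 2-fold below, on FPKM + 1. Of the 350 genes 249 were also called risen, and of the 150 genes 104 were also called fallen. Taken by itself, library 1 passed the 2-fold limit upwards for 1620 genes and library 2 for 484, and downwards for 299 and 216.

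Without hairpin library 2 the test called 1852 risen and 327 fallen genes, and without library 1 it called 54 and 41. Without normal library 1 it called 3 and 8, and without normal library 2 it called 2 and 7. The genes called under each of the 15 alternative settings, among those named here, were Atf3, Slc1a2 and Mup11. The median over all tested genes was 0.30 on the log2 scale, with 0.35 in hairpin library 1 and 0.22 in library 2. List medians below stand beside those values, and list counts beside the 3.26% risen and 1.07% fallen of all tested genes. A list count without a hairpin library stands beside the counts over all genes given above. Few genes were called without library 1, so a count near 0 there says little about a list. After centring each library on its median 128 genes rose and 185 fell, and after quantile normalization it was 114 and 122.

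**Figure D1:**
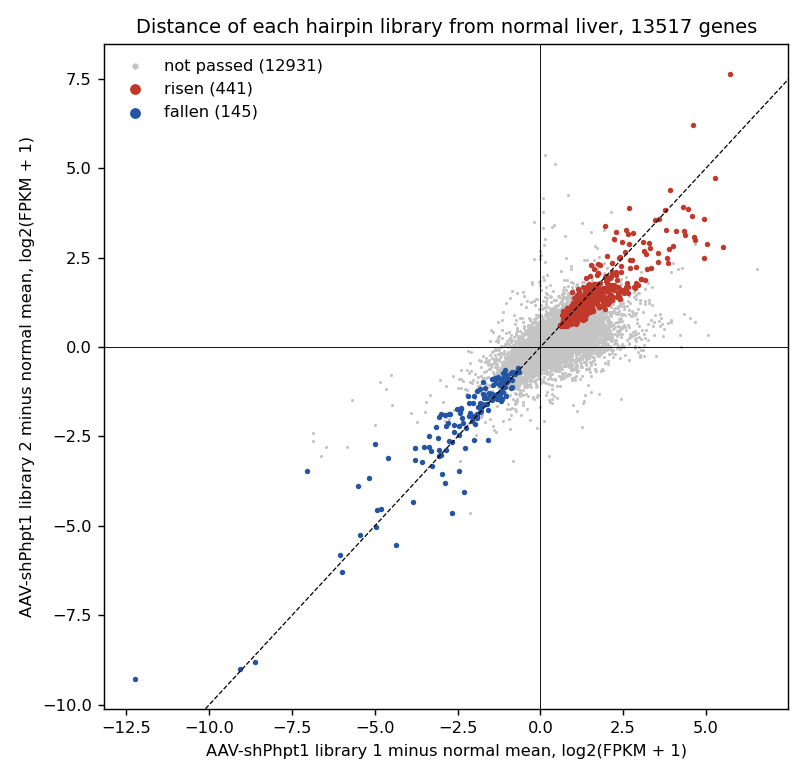
Each point is 1 of the 13517 tested genes. The x axis gives the difference of hairpin library 1 from the normal mean and the y axis that of library 2, both on log2(FPKM + 1), with the 441 risen genes in red and the 145 fallen genes in blue. Most called genes lie along the dashed line of equal differences, where the test, which uses the spread between libraries, favours a call. The grey cloud reaches further along the x axis than along the y axis to the upper right.

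The largest rises were Sprr1a, Nupr1, Ly6d, Gsta1, Mt1, Mmp12, Anxa2, Lgals3, Cdkn1a and Gpnmb. Of these, Sprr1a, Nupr1, Ly6d, Gsta1, Mmp12, Cdkn1a and Gpnmb had normal means under 1 FPKM. They entered through the hairpin mean alone, so the direction of their change was fixed by the rule. Sprr1a (ENSMUSG00000050359, chromosome 3, 92483952 to 92485895), a small proline-rich protein of stressed epithelium, had a listed value of 0 in normal livers, and the hairpin libraries held 51.9 and 197 FPKM (adjusted p = 0.0207, limma). Nupr1, a stress-induced chromatin protein, went from 0.953 and 0.856 FPKM in normal livers to 45.2 and 139 with the hairpin. For Sprr1a and Nupr1 hairpin library 2 was the higher one, so both rises were large in the library that lay nearer to normal. Ly6d, a membrane protein of the Ly6 family, stood at 0.375 and 0.337 FPKM in normal livers and 51.5 and 35.1 with the hairpin, a log2 difference of 5.00, SE 0.37.

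Some of these promoters hold a match to the motif of AP-1, the family of Fos and Jun proteins that also includes the product of Fosl1. The motif TGANTCA was searched on both strands in RefSeq promoter windows of the GRCm38.p6 build, from 250 bases before to 50 after the start. It was found for 4 of the 9 largest-rise genes with a window (44.4%), namely Sprr1a, Mmp12, Anxa2 and Gpnmb. The share was 6.64% of the 9704 tested genes with a window and 8.97% of all 27025 genes of the table. The 9 genes were picked from these same data by the size of their rise. A part of AP-1 in these rises was not tested. Windows of 3 genes with a match before the start are shown, because these genes were among the largest rises. Capitals mark the match, and in the first window they also take in 2 further bases of an antioxidant response core, TGACNNNGC, which overlaps the AP-1 match.
Sprr1a (minus strand, chr3:92485961-92486059): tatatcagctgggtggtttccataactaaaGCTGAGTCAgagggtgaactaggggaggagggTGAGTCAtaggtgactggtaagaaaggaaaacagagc
Mmp12 (plus strand, chr9:7347300-7347366): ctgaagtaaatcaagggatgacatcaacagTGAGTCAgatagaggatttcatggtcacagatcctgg
Anxa2 (plus strand, chr9:69453558-69453624): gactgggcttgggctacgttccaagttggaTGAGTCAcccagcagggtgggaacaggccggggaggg
The matches start 146 and 116 bases before the start in Sprr1a, 44 in Mmp12 and 95 in Anxa2. A match describes the letters only. The list of immediate early genes had this motif in 0 of 12 windows. The antioxidant core was held by 8 of 23 NRF2-list genes with a window (34.8%), against 16.7% of the tested genes with a window.

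Among stress genes, Atf3 stood out for the closeness of the libraries. Atf3 (ENSMUSG00000026628, chromosome 1, 191170296 to 191218039), a transcription factor of the integrated stress response, was at 0.5702 and 0.626 FPKM in normal livers and 20.7 and 21.7 with the hairpin, a 35.5-fold rise with a log2 difference of 3.80, SE 0.14 and adjusted p = 0.000901. The hairpin libraries differed little from each other and lay far above both normal libraries. Of 22 genes of the unfolded protein and integrated stress responses 6 rose (27.3%, against 3.26% of all tested genes) and none fell. Their median log2 difference was 0.96 in library 1 and 0.93 in library 2. Ddit3, which encodes the cell death regulator CHOP, went from 4.37 and 6.32 to 34.2 and 18.00 FPKM (adjusted p = 0.0382), and Trib3, a pseudokinase induced by the same pathway, from 6.79 and 3.76 to 27.04 and 18.01 (adjusted p = 0.0406). Median centring left 2 risen genes in the list, and there were 9 without hairpin library 2 and 1 without library 1.

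Targets of p53 gave 4 risen genes of 21, with medians of 0.98 and 0.84 in libraries 1 and 2. Cdkn1a (ENSMUSG00000023067, chromosome 17, 29090976 to 29100727), whose product halts the cell cycle, was at 0.661 and 0.08898 FPKM in normal livers and at 30.9 and 15.9 with the hairpin, 62.5-fold higher (adjusted p = 0.0152). Trp53inp1, a p53-induced protein of autophagy and cell death, stood at 18.4 and 14.3 FPKM in normal livers and 49.7 and 45.4 with the hairpin. The hairpin libraries were near each other for Trp53inp1 and 1.94-fold apart for Cdkn1a, and both were above both normal libraries for each gene. With hairpin library 2 left out the list had 8 risen genes, and without library 1 it had 0.

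NRF2 targets gave 8 risen (29.6%, against 3.26% of all tested genes) and 1 fallen genes of 27. Their medians were 1.49 and 0.78 in libraries 1 and 2, and 4 genes rose after median centring. Trib3, given above with the integrated stress response, was among the 8, since some lists share genes. Srxn1, sulfiredoxin, was at 28.5 and 23.6 FPKM in normal livers and 128 and 109 with the hairpin, 4.54-fold higher (log2 difference 2.14, SE 0.20, adjusted p = 0.01296). Gsta1, a glutathione transferase with near-identical copies that make its reads uncertain, went from 0.418 and 0.322 to 40.9 and 15.3 FPKM. Slc7a11, the cystine importer, had a listed value of 0 in normal livers and 5.47 and 4.44 FPKM with the hairpin, and Abcc4, an exporter of organic anions, rose from 0.175 and 0.339 to 6.52 and 11.2. Nqo1, the quinone reductase often used to report NRF2 activity, averaged 8.96 ± 4.73 FPKM with the hairpin against 2.14 ± 1.04 (SD, n = 2) and did not pass (adjusted p = 0.0646). The fallen member was the glutathione transferase gene Gstp1, named after its values were seen, at 2966 and 2596 FPKM in normal livers and 839.7 and 1109 with the hairpin (adjusted p = 0.0498), and it too has close copies. Metallothionein Mt1, which binds zinc and other metals, rose from 5.17 and 4.15 to 84.8 and 117 FPKM and was higher in library 2.

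Genes of the cytoskeleton held more called genes than any other of the 50 lists. Of 21 tested actin, tubulin, annexin, S100 and keratin genes 14 rose (66.7%, against 3.26% of all tested genes) and none fell. In both hairpin libraries 14 were at least 2-fold above both normal libraries, against 2.59% of all tested genes. The list's medians were 1.97 in library 1 and 1.54 in library 2, and 10 genes were still called after median centring. Leaving out hairpin library 2 gave calls for 17 genes, and leaving out library 1 for 2. Anxa2, a membrane-binding protein, went from 5.88 and 4.25 FPKM to 130.1 and 85.7, 21.3-fold (adjusted p = 0.0102). Tubb2a, a beta-tubulin, went from 21.6 and 9.63 to 185 and 186 FPKM, with hairpin libraries that were nearly equal. S100a11, a calcium-binding protein, stood at 6.56 and 4.498 FPKM in normal livers and 62.4 and 43.2 with the hairpin (adjusted p = 0.0148). The tropomyosin gene Tpm1, of the myofibroblast list, was at 18.9 and 19.6 FPKM in normal livers and 90.6 and 103 with the hairpin (adjusted p = 0.01296). Tpm1 was high in both hairpin libraries and somewhat higher in library 2, the one with the skeletal muscle transcripts, whose part in that value was not tested.

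Of 16 immediate early genes 3 rose, Atf3, Klf6 and Fosl1, with list medians of 1.19 and 1.15. Klf6, a zinc-finger factor, was at 1.89 and 3.29 FPKM in normal livers and 13.2 and 19.5 with the hairpin, and Fosl1, an AP-1 subunit, at 0 and 0.122 FPKM in normal livers and 2.73 and 4.17 with the hairpin. Acute phase genes gave 5 risen and 1 fallen of 24, the latter Saa4, a serum amyloid named after its values were seen (325 and 233 FPKM in normal livers and 72.2 and 117 with the hairpin). Lcn2, lipocalin 2, which binds bacterial iron carriers, rose from 14.98 and 7.85 to 247 and 104 FPKM, and Il1rn, the interleukin-1 receptor antagonist, from 1.22 and 0.893 to 19.1 and 14.4. Saa1, serum amyloid A, stood at 97.03 and 43.8 FPKM in normal livers and 271 and 152 with the hairpin without passing (adjusted p = 0.0759). In the list of fetal and imprinted genes 3 of 9 rose, Ly6d, Abcc4 and H19. Afp, alpha-fetoprotein, was at 4.38 and 4.34 FPKM in normal livers and 11.2 and 8.01 with the hairpin and did not pass (adjusted p = 0.0537).

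**Figure D2:**
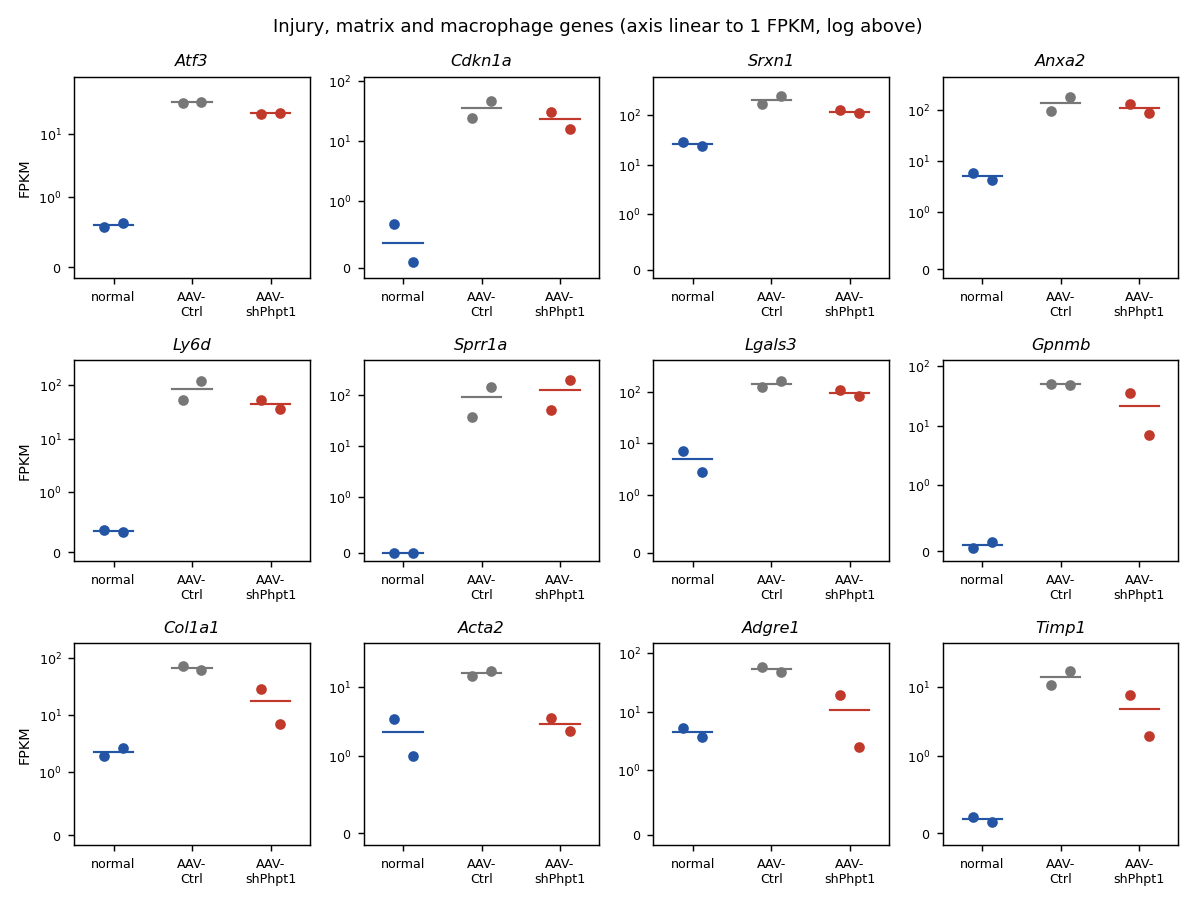
Each panel gives the FPKM of 1 gene in the 6 libraries, with a dot per library (library 1 on the left of each pair), a bar for the mean of 2, and an axis that is linear up to 1 FPKM and logarithmic above. The hairpin dots sit far above the normal dots for Atf3, Cdkn1a, Srxn1, Anxa2, Ly6d, Sprr1a and Lgals3, and for Adgre1 and Acta2 the hairpin and normal dots overlap.

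Matrix genes were less uniform, and most of them did not pass. Of 16 collagen chains none rose or fell, with a median of 1.44 in hairpin library 1 and 0.35 in library 2. Col1a1 (ENSMUSG00000001506, chromosome 11, 94936224 to 94953042), the main fibrillar collagen of scars, was at 1.93 and 2.605 FPKM in normal livers and 28.2 and 6.94 with the hairpin, a mean ratio of 7.75 (adjusted p = 0.07201). Both hairpin libraries were above both normal libraries and 4.06-fold apart from each other. Col3a1 was at 7.799 and 8.83 FPKM in normal livers and 54.3 and 12.7 with the hairpin (adjusted p = 0.139), and Col1a2 at 2.81 and 2.502 FPKM in normal livers and 22.5 and 6.45 with the hairpin (adjusted p = 0.0792). Without hairpin library 2, 9 of the collagens were called higher, against 0 without library 1.

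Matrix glycoproteins and proteoglycans gave 2 risen genes of 22. Nid1, nidogen of basement membranes, rose from 0.9803 and 1.99 to 33.1 and 12.8 FPKM (adjusted p = 0.0337), and Spp1, osteopontin, from 16.9 and 23.1 to 67.6 and 83.7 (adjusted p = 0.0481). Spp1 was higher in library 2, whereas 20 of the 22 genes were higher in library 1, as were 8178 of all 13517 tested genes. Crosslinking and remodelling genes gave 5 risen of 21, and 1 after median centring. Plaur, the urokinase receptor, stood at 0.534 and 0.295 FPKM in normal livers and 6.59 and 5.77 with the hairpin (adjusted p = 0.0278). The hairpin libraries of Plaur were less than 2-fold apart, while Timp1, a metalloproteinase inhibitor, was 3.87-fold higher in library 1, at 7.65 and 1.98 FPKM against 0.217 and 0.146 in normal livers (adjusted p = 0.0669).

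Among 17 stellate cell and myofibroblast markers only Vim and Tpm1 rose. Vim, vimentin, went from 6.72 and 6.26 to 38.4 and 17.9 FPKM (adjusted p = 0.0414). The myofibroblast actin gene Acta2 (ENSMUSG00000035783, chromosome 19, 34241090 to 34255590) was at 3.501 and 1.01 FPKM in normal livers and 3.54 and 2.37 with the hairpin, and the groups overlapped (adjusted p = 0.5097). AAV-Ctrl had 14.6 and 17.3 FPKM of Acta2, and the test of hairpin against AAV-Ctrl gave a log2 difference of -2.11 with adjusted p = 0.434. Pdgfrb, the receptor through which PDGF drives stellate cells, stood at 0.756 and 1.13 FPKM in normal livers and 4.42 and 2.13 with the hairpin (adjusted p = 0.0864) and Des, desmin, at 1.62 and 1.65 FPKM in normal livers and 4.07 and 7.39 with the hairpin (adjusted p = 0.0553). Des is also a muscle protein and was higher in library 2, the one with the skeletal muscle transcripts, whose part in that value was not tested. Of 20 genes of TGF-beta signalling 1 rose, the feedback repressor Skil (2.94 and 2.78 FPKM in normal livers and 7.91 and 7.895 with the hairpin), and it was not called after median centring. Tgfb1 was at 3.87 and 3.68 FPKM in normal livers and 18.05 and 4.65 with the hairpin (adjusted p = 0.191). In these bulk samples fewer cells of a type and less RNA per cell cannot be told apart.

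Macrophage genes were mixed in the same way. Of 20 monocyte and macrophage markers 5 rose, and the list's median was 2.21 in library 1 and 0.51 in library 2. Lgals3 (ENSMUSG00000050335, chromosome 14, 47367751 to 47386160), galectin-3, was at 7.13 and 2.799 FPKM in normal livers and 109.8 and 83.2 with the hairpin, 19.4-fold higher (adjusted p = 0.0115). Gpnmb, a glycoprotein of macrophages that take up lipid and debris, went from 0.0519 and 0.1397 to 35.1 and 7.05 FPKM, and Mmp12, macrophage elastase, one of the risen remodelling genes, from 0.0481 and 0.0863 to 48.3 and 6.41. Cd14, a co-receptor for bacterial lipopolysaccharide that injured hepatocytes also express, was at 0.7401 and 0.638 FPKM in normal livers and 9.700 and 23.8 with the hairpin and was higher in library 2. Gpnmb was 4.98-fold and Mmp12 7.54-fold higher in library 1 than in library 2, while Lgals3 was high in both.

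The pan-macrophage genes did not pass. Adgre1 (ENSMUSG00000004730, chromosome 17, 57358691 to 57483527), which encodes F4/80, was at 5.19 and 3.72 FPKM in normal livers and 18.9 and 2.47 with the hairpin, so library 1 was above and library 2 below both normal libraries (adjusted p = 0.567). Cd68 stood at 7.54 and 6.203 FPKM in normal livers and 41.2 and 10.4 with the hairpin (adjusted p = 0.136) and Lyz2, lysozyme, at 25.6 and 20.8 FPKM in normal livers and 164 and 47.7 with the hairpin (adjusted p = 0.0829). Without hairpin library 2, 16 of the 20 markers were called higher, against 2 without library 1.

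Markers of resident Kupffer cells were lower in hairpin library 2 than in normal livers. The list had medians of 0.36 in library 1 and -1.31 in library 2, with 1 gene risen and 1 fallen of 11. Clec4f, a lectin found on Kupffer cells alone in mouse liver, was at 45.3 and 40.4 FPKM in normal livers, 51.05 and 4.295 with the hairpin (adjusted p = 0.336) and 95.5 and 54.4 in AAV-Ctrl. The value in library 1 was slightly above both normal libraries and that in library 2 far below them. Marco, a scavenger receptor, was the risen one at 3.36 and 2.29 FPKM in normal livers and 116 and 20.2 with the hairpin (adjusted p = 0.0484). The fallen one was C6, a complement component that is also in the male-biased list, at 239.5 and 257 FPKM in normal livers and 35.5 and 67.03 with the hairpin (adjusted p = 0.0225).

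Other immune cells and the endothelium gave almost no calls with both hairpin libraries. Neutrophil markers gave 1 risen gene of 8, the receptor gene Csf3r (1.62 and 1.36 FPKM in normal livers and 10.03 and 5.37 with the hairpin, adjusted p = 0.0411), with list medians of 2.74 and 0.02. T and NK cell, B and plasma cell and endothelial markers gave none of 14, 9 and 17. All 14, 9 and 17 tested genes of these 3 lists were higher in library 1 than in library 2, as were 8178 of all 13517 tested genes. In libraries 1 and 2 the T and NK cell list had medians of 1.57 and 0.32. The medians were 1.42 and 0.19 for B and plasma cell genes and 0.81 and -0.09 for endothelial genes. Over all tested genes they were 0.35 and 0.22. Chemokine genes gave 1 risen of 17, Cxcl9, an attractant of T cells induced by interferon-gamma, at 4.77 and 4.102 FPKM in normal livers and 26.4 and 16.3 with the hairpin (adjusted p = 0.0311). Ccl2, which attracts monocytes, was at 0.877 and 0.0875 FPKM in normal livers and 3.42 and 5.97 with the hairpin and did not pass (adjusted p = 0.102).

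Interferon-stimulated genes were near normal in both hairpin libraries. Of 26 such genes 1 rose, Oas1a, a sensor of double-stranded RNA, from 2.99 and 2.64 to 6.47 and 6.996 FPKM (adjusted p = 0.0406). The list's median was 0.15, below the 0.30 of all tested genes, and it changed sign to -0.20 after median centring. By library the medians were 0.09 in library 1 and 0.37 in library 2, against 0.35 and 0.22 over all tested genes. AAV-Ctrl, compared with the same normal libraries, had a median of 1.13 for this list. Set directly against AAV-Ctrl, the hairpin group had a list median of -0.99, and no gene passed that test. Genes induced by interferon-gamma gave 1 risen of 19, Gbp2, a GTPase, at 2.900 and 1.84 FPKM in normal livers and 14.1 and 7.78 with the hairpin. Their median was 0.08 (0.23 in library 1 and -0.08 in library 2), against 1.32 in AAV-Ctrl and -0.27 after median centring. Directly against AAV-Ctrl it was -0.96, again with no gene past the threshold.

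DNA replication and mitosis genes separated the hairpin libraries. All 29 tested genes of the list were higher in library 1, against 8178 of all 13517. The list's medians were 2.17 and 0.23, against 0.35 and 0.22 over all tested genes. Mki67, a marker of cycling cells, was at 0.2100 and 0.534 FPKM in normal livers and 7.69 and 0.466 with the hairpin, and library 2 lay between the normal libraries (adjusted p = 0.247). Only Ccnd1, cyclin D1, rose, from 8.17 and 10.4 to 118 and 52.4 FPKM (adjusted p = 0.0225). Without hairpin library 2, 22 of the 29 genes were called higher, against 1 without library 1.

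**Figure D3:**
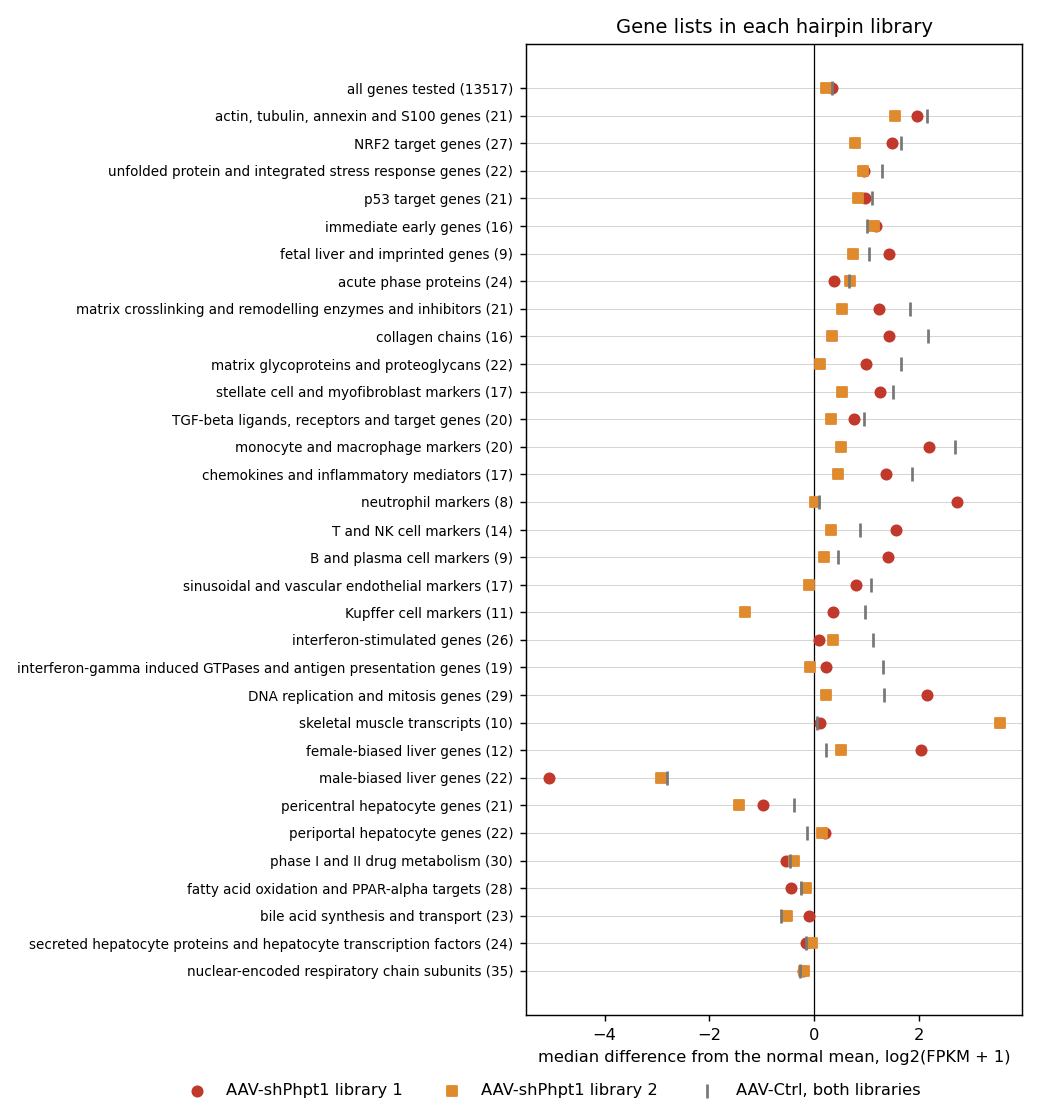
The x axis gives the median difference from the normal mean on log2(FPKM + 1) for each list (number of tested genes in brackets), with red circles for hairpin library 1, orange squares for library 2 and grey bars for AAV-Ctrl. Circles and squares lie close together for stress response, p53 and immediate early genes and far apart for macrophage, cell cycle, neutrophil, skeletal muscle and sex-biased lists.

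Pericentral hepatocyte genes were low in both hairpin livers. Of 21 such genes 6 fell and 1 rose, with medians of -0.97 in library 1 and -1.43 in library 2. Slc1a2 (ENSMUSG00000005089, chromosome 2, 102658659 to 102790784), a glutamate transporter of the hepatocytes that border the central vein, was at 85.98 and 101 FPKM in normal livers and 0.493 and 0.216 with the hairpin, 264-fold lower (log2 difference -6.13, SE 0.20, adjusted p = 0.000788). Glul (ENSMUSG00000026473, chromosome 1, 153899944 to 153909723), glutamine synthetase of the same cells, was at 895 and 951 FPKM in normal livers and 44.3 and 18.9 with the hairpin, 29.2-fold lower (adjusted p = 0.00783). Cyp2e1 (ENSMUSG00000025479, chromosome 7, 140763739 to 140774987), which activates CCl4, went from 5999 and 6342 FPKM to 217 and 268 (adjusted p = 0.0249). The hairpin libraries of Cyp2e1 were close to each other, and the mean was 25.4-fold below normal. Of the pericentral list 6 genes fell without hairpin library 2 and 4 without library 1. The risen member was the amino acid transporter gene Slc1a4, named after its values were seen, at 1.29 and 1.21 FPKM in normal livers and 9.57 and 5.77 with the hairpin.

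Cyp1a2, another pericentral cytochrome, which metabolizes caffeine, was at 731 and 882 FPKM in normal livers and 291 and 289.9 with the hairpin (log2 difference -1.47, SE 0.18, adjusted p = 0.02402). AAV-Ctrl had 945 and 747 FPKM of it, overlapping the normal libraries. The test of hairpin against AAV-Ctrl gave -1.53 with adjusted p = 0.434, so a difference between the viruses did not pass. Periportal genes gave 2 risen and 1 fallen of 22, with a median of 0.13 that turned to -0.22 after median centring. Pck1, the gluconeogenic carboxykinase, fell from 1597 and 1715 to 509.8 and 651 FPKM (adjusted p = 0.0207). Apoa4, an apolipoprotein, rose from 4.56 and 4.01 to 31.9 and 45.99 FPKM, and Hsd17b13, a lipid droplet enzyme, from 183 and 197 to 479 and 432.

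General hepatocyte genes stayed high. Alb, albumin, was at 72939 and 78313 FPKM in normal livers and 129572 and 87477 with the hairpin (adjusted p = 0.641), and Hnf4a, the master regulator of hepatocyte identity, at 284 and 291 FPKM in normal livers and 308 and 319.9 with the hairpin (adjusted p = 0.509). Of 24 secreted proteins and transcription factors 1 rose, the Trf entry (transferrin), a call that ended after median centring. It was at 21.4 and 20.7 FPKM in normal livers and 39.9 and 42.6 with the hairpin (adjusted p = 0.0474, limma). This entry read far below Alb and Apoa1 and also below Hnf4a in every library, and the reason was not tested. Apoa1 stood at 10764 and 10988 FPKM in normal livers and 9607 and 6604 with the hairpin (adjusted p = 0.353). Of 29 coagulation and complement genes C8b fell, from 489 and 402 to 139 and 199 FPKM. Respiratory chain subunits encoded in the nucleus gave no call among 35, and ribosomal proteins none among 37.

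Drug, bile acid and fat metabolism held single large changes. Drug metabolism genes gave 1 risen and 5 fallen of 30. Cyp2c37, which has close copies in its family, went from 108 and 102 to 9.99 and 9.52 FPKM (adjusted p = 0.03904), and Cyp4a14, a fatty acid hydroxylase induced by PPAR-alpha, rose from 7.84 and 5.09 to 108 and 48.6 (adjusted p = 0.0292). Cyp4a14 was the 1 risen gene among 28 of fatty acid oxidation and PPAR-alpha, of which 4 fell, among them the lipase inhibitor Angptl4, from 68.6 and 37.7 to 14.4 and 16.2 FPKM, and the peroxisomal thiolase Acaa1b, from 442 and 578 to 182 and 194. Cyp7b1 (ENSMUSG00000039519, chromosome 3, 18071950 to 18243338), an oxysterol hydroxylase of bile acid synthesis, fell from 305 and 202 to 4.52 and 15.9 FPKM, 24.9-fold (adjusted p = 0.0155). In bile acid genes 2 of 23 rose, Acnat2 and the FGF15 receptor gene Fgfr4, the latter from 24.4 and 26.4 to 51.9 and 49.9 FPKM, and neither was called after median centring. Lipogenesis genes gave 1 risen of 21 and 0 after median centring. The risen one was Gpam, the first enzyme of triglyceride synthesis, at 27.7 and 38.6 FPKM in normal livers and 64.4 and 61.7 with the hairpin, and cholesterol synthesis gave none of 23, with Hmgcs1 at 49.4 and 38.2 FPKM in normal livers and 77.9 and 119.8 with the hairpin (adjusted p = 0.05200).

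Growth hormone and IGF genes gave 1 risen and 2 fallen of 18. Ghr, the growth hormone receptor, fell from 446 and 503 to 224 and 239 FPKM (adjusted p = 0.0338), and Igfbp1, a secreted IGF-binding protein, rose from 15.2 and 24.8 to 224 and 238 (adjusted p = 0.0249). Male-biased liver genes, which depend on the pulses of growth hormone in male rodents, had 11 fallen and 0 risen members of 22, against 1.07% of all tested genes fallen. Both hairpin libraries were below both normal libraries for all 22, against 12.5% of all tested genes. AAV-Ctrl also had 11 fallen genes of this list, with a median of -2.81 against normal. The list's median for hairpin directly against AAV-Ctrl was -1.40, and no gene passed that test. Mup11 (ENSMUSG00000073834, chromosome 4, 60658466 to 60662411), a major urinary protein, was at 602 and 330.3 FPKM in normal livers and 0.1398 and 0 with the hairpin (adjusted p = 0.00101). Mup7 stood at 7284 and 4167 FPKM in normal livers and 0.148 and 7.92 with the hairpin and Mup17 at 979.8 and 295 FPKM in normal livers and 0 and 0.0446 with the hairpin. Mup1, Mup12 and Mup19 were also among the 10 largest falls. Mup genes have near-identical copies, so how reads were shared among them is uncertain. The transcript Gm21320 was another of them, at 149 and 182 FPKM in normal livers and 0.246 and 14.02 with the hairpin (adjusted p = 0.0485).

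**Figure D4:**
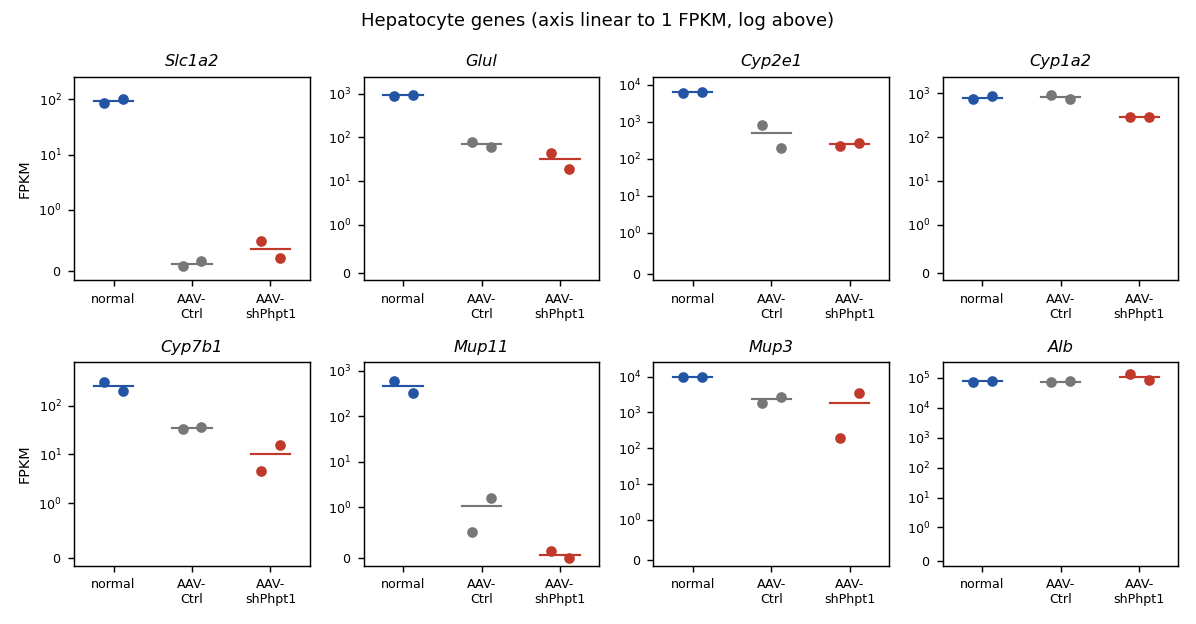
Each panel gives the FPKM of 1 hepatocyte gene in the 6 libraries, with a dot per library (library 1 on the left of each pair), a bar for the mean of 2, and an axis that is linear up to 1 FPKM and logarithmic above. Hairpin dots of Slc1a2, Glul, Cyp2e1, Cyp7b1 and Mup11 lie far below the normal dots, those of Cyp1a2 lie below both other groups, and Alb is high in every library.

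Of the genes tied to histidine phosphorylation other than Phpt1, 2 rose and 1 fell of 9 tested. Lhpp, another histidine phosphatase, was at 46.3 and 44.4 FPKM in normal livers and 8.46 and 1.81 with the hairpin (log2 difference -3.17, SE 0.59, adjusted p = 0.0443), and at 14.6 and 6.899 in AAV-Ctrl. Gnb1, a G protein subunit that PHPT1 dephosphorylates, stood at 33.9 and 33.2 FPKM in normal livers and 59.7 and 51.1 with the hairpin (adjusted p = 0.0484). The Gnb1 call ended after median centring and after quantile normalization. Nme6, of the nucleoside diphosphate kinase family, was at 16.9 and 15.8 FPKM in normal livers and 52.1 and 42.5 with the hairpin (adjusted p = 0.0204).

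The genes furthest apart between the hairpin libraries fell into few kinds. Higher in library 2 were the muscle genes Acta1, skeletal actin, at 0.123 and 41.3 FPKM in libraries 1 and 2, Tnnt3, a troponin, at 0.4995 and 37.3, and Mb, myoglobin, at 0.0562 and 17.1, against at most 0.110 FPKM in normal livers. Hsd3b5, a male-biased steroid dehydrogenase, was at 1.18 and 40.1 FPKM, Mup3 at 188 and 3536 and Sult2a8, a sulfotransferase, at 5.46 and 143. Higher in library 1 were the immunoglobulin genes Igha, at 78.7 and 4.48 FPKM, Ighv8-8, Igkv9-124 and Igkj3, and the female-biased cytochromes Cyp2b9, at 34.03 and 0.331, and Cyp2a4, at 126 and 5.11. None of these genes passed the test against normal. All 10 muscle genes were called higher without hairpin library 1, which leaves library 2 alone.

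All 12 tested female-biased genes were higher in library 1 than in library 2, against 8178 of all 13517, and the Y-linked gene Ddx3y was read at 18.0 to 32.3 FPKM in all 6 libraries while Xist stayed at or under 0.0356 FPKM. Red blood cell transcripts were lower in library 2 at 75.5 FPKM summed over 5 genes, against 155 in library 1 and 218 and 235 in normal livers. Of the pancreas list only Cela1 was tested, at 37.3 and 37.3 FPKM in normal livers and 8.35 and 8.73 with the hairpin (adjusted p = 0.00783), and Prss2 was at 0 in every library. The adipose marker Adipoq was at 0 in every library, and mesothelial genes summed to at most 2.34 FPKM in the hairpin libraries. The part of muscle, lymphocyte or blood transcripts in the differences above was not tested.

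**Figure D5:**
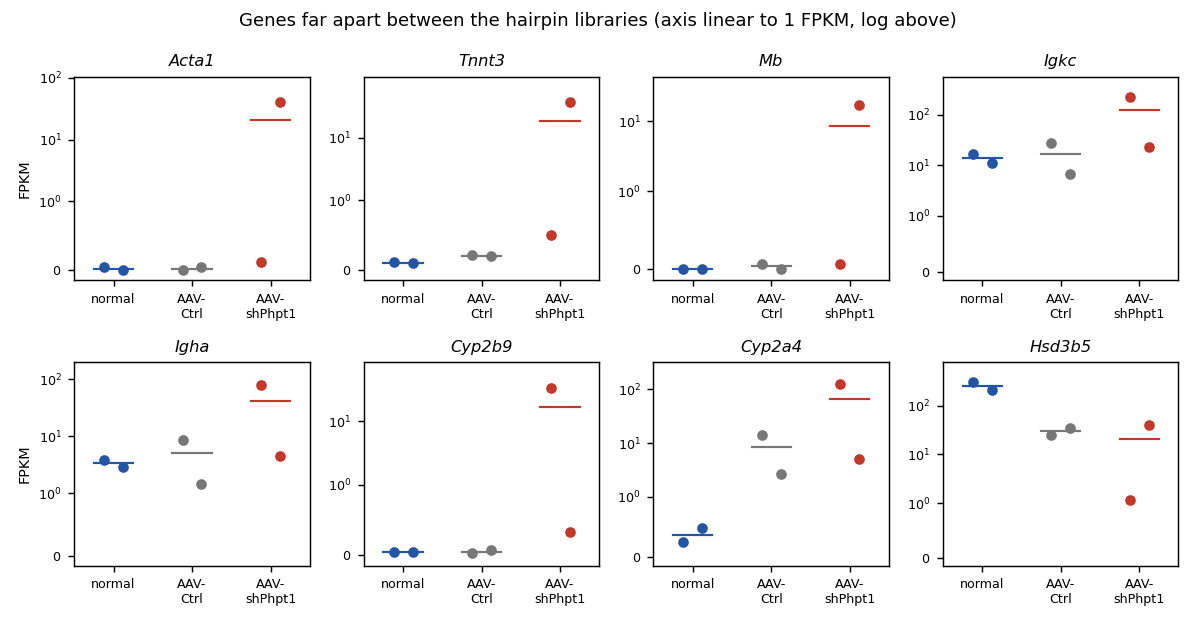
Each panel gives the FPKM of 1 gene in the 6 libraries, with a dot per library (library 1 on the left of each pair), a bar for the mean of 2, and an axis that is linear up to 1 FPKM and logarithmic above. Acta1, Tnnt3 and Mb are high in hairpin library 2 alone, while Igkc, Igha, Cyp2b9 and Cyp2a4 are highest in hairpin library 1.

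Set directly against AAV-Ctrl, which had the same CCl4 treatment, the hairpin group had no gene past the threshold in either direction (0% of 13517, limma, with 1146 at an unadjusted p under 0.05). Voom on recovered reads also called 0, with 1167 at an unadjusted p under 0.05. Without hairpin library 1, which leaves library 2 alone, 400 genes were called, and without library 2 it was 6. Among stress genes, Atf3 was at 31.02 and 32.4 FPKM in AAV-Ctrl, above both hairpin libraries, while Anxa2 at 94.02 and 175 and Cdkn1a at 24.5 and 47.9 overlapped them. Both AAV-Ctrl libraries were above both hairpin libraries for Col1a1 at 72.5 and 61.2 FPKM, Adgre1 at 58.6 and 46.9 and Timp1 at 10.7 and 17.1, and none of these differences passed (adjusted p = 0.4900, 0.4900 and 0.522). The groups overlapped for Nid1, at 20.7 and 37.5 FPKM in AAV-Ctrl, and for Spp1, at 51.5 and 112. Against normal, with the same 2 normal libraries that the hairpin was compared with, AAV-Ctrl had 2464 risen (18.2%) and 308 fallen genes (2.28%). A p that misses the threshold does not show that these groups were alike.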

How the data were processed

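RNA-seq values of 6 mouse liver libraries were read from the table that the authors deposited. The unit is missing from its header, and the deposited numbers were read as FPKM because a value times the gene's rounded mean transcript length (GENCODE M21, GRCm38, where 54495 of 55222 identifiers matched) is a whole number of reads, within 0.05, for 96.3% to 96.6% of values above 0. Bowtie 0.12.2 is named in the submitters' processing notes, as are mm8 and mm9 as genome builds. Their roles, the counter and the annotation were not stated. Groups were taken from the sample titles.

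In R 4.3.3, limma 3.58.1 in its trend form fitted log2(FPKM + 1) of the 13517 genes whose mean reached 1 FPKM in any group, in 1 model of the 3 groups (residual degrees of freedom 3, prior degrees of freedom 3.21). Two-sided tests were used, with Benjamini-Hochberg adjustment over all 13517 genes and a threshold of 0.05. The log2 scale with a pseudocount of 1 understates changes of low genes. Folds in the text are ratios of mean FPKM. Intervals cover counting error only.

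The genes described and the 50 lists, with 960 genes, were chosen with earlier results of these data known. Named genes followed a rule: Phpt1; the 10 largest rises and 10 largest falls that passed the test, did not overlap and reached 5 FPKM; a fixed set of injury and liver genes; up to 3 called members per list, or the 2 highest where none was called; and the 6 genes furthest apart between the hairpin libraries in each direction. Alternatives were another pseudocount, other filters, 2 other scalings, 4 libraries, a replicate block, each library left out, and voom on recovered reads. A gene that the rule named is not reported here.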

Additional observations from a re-analysis of the deposited data

Results flagged for a closer look

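H19, an imprinted RNA of fetal liver, is given here because its values left normal upwards in both hairpin libraries and not in AAV-Ctrl. It was at 0.0374 and 0.0336 FPKM in normal livers and 3.61 and 3.45 with the hairpin, while AAV-Ctrl had a listed value of 0 in each library. The log2 difference of hairpin against normal was 2.13, SE 0.24, with adjusted p = 0.0179 in limma. The normal values were themselves near 0, and the log2 difference of AAV-Ctrl against normal was -0.05, SE 0.24 (adjusted p = 0.886 in limma), so no lowering in AAV-Ctrl was shown. The log2 difference of hairpin against AAV-Ctrl was 2.18, with adjusted p = 0.434, and did not pass.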

How the results depend on the processing

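No named or listed gene with a call turned its direction under the 15 alternatives, but counts of calls moved widely. Of risen and fallen genes, reported as 441 and 145, 1 and 3 were called with no filter on low values (28062 genes tested), 95 and 56 with the 4 hairpin and normal libraries alone, 128 risen with median centring and 114 with quantile normalization. Voom on recovered reads, added after seeing the data in place of the planned count model, which was not run because the deposited unit is FPKM, gave 39 and 82, and 108 and 51 with library totals. Leaving out 1 library gave 2 to 1852 risen and 7 to 327 fallen genes, and 0 to 400 calls against AAV-Ctrl. A lone library is then assumed to vary like the other groups. Genes at least 2-fold higher in both hairpin libraries, reported as 350, were 837 with a pseudocount of 0.1, 178 with median centring and 199 with quantile normalization, and 350 to 1620 with 1 library left out. Those at least 2-fold lower, reported as 150, were 268 with median centring and 150 to 336 with 1 library left out. The cause of these shifts was not tested. With the replicate block 272 genes rose and 112 fell, of which 233 and 98 were among the reported calls. Samples sharing a number had correlations of their deviations of 0.04 for hairpin and normal, 0.07 for AAV-Ctrl and normal and 0.15 for hairpin and AAV-Ctrl. With 2 libraries per group these values cannot show whether samples sharing a number were paired or processed together. Of the 79 named genes called, 77 were still called with a pseudocount of 0.1, 64 with the block, 55 with median centring, 51 with quantile normalization and 7 without normal library 2. The number of 2 libraries per group limits every result here.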

Other observations

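Several gene groups outside the comparisons above held few calls between hairpin and normal livers. Of 23 lysosomal genes 2 rose, the membrane protein gene Cd63, from 1.95 and 1.68 to 37.8 and 26.4 FPKM, and the proton pump subunit gene Atp6v1b2, from 30.1 and 26.7 to 71.1 and 48.2. Of 14 chaperone genes 1 rose, Hsp90aa1, from 146 and 119 to 248 and 287 FPKM (adjusted p = 0.0459 in limma). Cholangiocyte markers gave 2 risen of 9, Spp1 and Sox9, a factor of bile duct and progenitor cells, which went from 1.06 and 0.495 to 5.97 and 5.63 FPKM (adjusted p = 0.0213 in limma), while Krt7, a keratin that defines duct cells, was at 0.274 and 0.492 FPKM in normal livers and 0.476 and 0.708 with the hairpin. Female-biased genes gave 2 risen of 12, Rtn4 and Abcd2, the latter a peroxisomal transporter gene, from 1.05 and 4.97 to 55.5 and 23.99 FPKM.

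Clock genes (19), glycolysis genes (22) and NADPH oxidase subunits (7) gave no call with both hairpin libraries. The oxidase list had medians of 2.06 in library 1 and 0.43 in library 2. The medians were 0.36 and 0.29 for glycolysis genes and -0.47 and -0.41 for clock genes. Over all tested genes they were 0.35 and 0.22. Transcripts encoded in mitochondria gave 1 fallen of 13, mt-Atp8, at 26.5 and 19.5 FPKM in normal livers and 10.4 and 9.93 with the hairpin (adjusted p = 0.0391 in limma).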
